A study of Rattus norvegicus with 4 samples.

Results

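AMPA and NMDA receptor subunit genes were followed across the cell types of the rat nucleus accumbens, and in cocaine-treated against saline-treated rats. The members are 9 genes chosen by symbol, Gria1, Gria2, Gria3 and Gria4 for the AMPA receptor and Grin1, Grin2a, Grin2b, Grin2c and Grin3a for the NMDA receptor. Of these 9, 8 were listed by symbol among the 30560 genes of the deposited matrices, and Gria3 was not analysed here. Single-nucleus RNA sequencing was run on 4 libraries, 1 each from saline females, cocaine females, saline males and cocaine males. All rats were Sprague-Dawley adults aged 90 to 120 days. The cocaine groups received 20 mg/kg cocaine by intraperitoneal injection on each of 7 consecutive days, the saline groups received the same volume of saline, and tissue was taken 1 h after the last injection. Each library pooled 2 mm punches centred on the core of the accumbens from 4 rats of 1 sex and treatment, 16 rats in all, so a library is the replicate, there were 2 per treatment, and the spread between rats within a pool was not measured. The 2 libraries of a treatment differ in sex and in the rats pooled, and these cannot be told apart. In fits with sex as covariate, p-values for cocaine set its effect against how far it differs between the female and male pairs. They also draw on spread shared across genes, which in some cell classes carries most or all of the weight, as given below. In fits with the library as a block, p-values set the difference between cell classes against how far it varies from library to library. These too draw on the shared spread.

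AMPA receptors are tetramers of GluA subunits that carry most of the fast excitatory current in the brain, and the GluA2 subunit, the product of Gria2, makes them impermeable to calcium once its transcript is edited. NMDA receptors combine the obligatory GluN1 subunit, from Grin1, with GluN2 subunits that set the channel kinetics and with GluN3 subunits that lower calcium entry. In the accumbens these receptors receive cortical, hippocampal, amygdalar and thalamic input onto medium spiny neurons (MSNs), the GABAergic projection neurons that carry either the D1 or the D2 dopamine receptor.

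The libraries held 6213 to 7265 barcodes with a median of 4363 to 5066 UMIs (unique molecular identifiers, each counting 1 captured transcript), and 24843 nuclei remained after filtering and removal of 1381 predicted doublets. Libraries shared 10 to 18 barcodes by pair. Nuclei were clustered without the receptor genes and clusters were named from marker lists as "X-like" (14 named classes, of which 12 had at least 25 nuclei in every library and were tested). Several classes were not made up alike in every library. The other GABAergic neuron-like class held 773 nuclei in the saline female library against 273 to 418 in the rest. The glutamatergic neuron-like class held 31 and 53 nuclei in saline females and males and 257 and 120 in cocaine, and its larger cluster made up 25.8% and 86.8% of them in saline and 75.5% and 50.8% in cocaine. Levels below are CPM, the UMIs of a gene scaled to a common total over all genes of the class in a library. Log2 differences from the fits use totals adjusted by TMM scaling, so they can be larger or smaller than the printed CPM give. They are compared between classes and treatments and not between genes, because 3′ capture differs from gene to gene.

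Gria1, which encodes GluA1, was highest in Pvalb/Pthlh interneuron-like nuclei, with 3574 CPM in saline females, 3146 in cocaine females, 3955 in saline males and 3196 in cocaine males. Pvalb itself was not listed by symbol and was not measured. This class was named from the other 5 of its 6 markers, with Kit and Pthlh among its leading genes. Every library of this class lay above every library of the next one, eccentric MSN-like nuclei, at 2006 ± 117 CPM (mean ± SD over 4 libraries, as for all levels and ratios below, while log2 differences carry the SE of the fit). D2-MSN-like nuclei had 1972 ± 118 CPM of Gria1 and D1-MSN-like nuclei 1827 ± 116. The ranges of these 3 MSN classes overlapped. Among the glia Gria1 reached 180 ± 6.18 CPM in oligodendrocyte precursor-like nuclei and was at 29.6 ± 5.44 CPM in microglia-like nuclei, which serve here as the background because microglia are expected to carry little of these transcripts. At 43.5 ± 15.7 CPM in astrocyte-like nuclei, its range overlapped that background.

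Gria2 was spread more evenly. It stood at 1645 ± 42.8 CPM in D2-MSN-like, 1619 ± 31.4 in D1-MSN-like and 1585 ± 25.8 in eccentric MSN-like nuclei, and these ranges overlapped. Oligodendrocyte precursor-like nuclei, at 1328 ± 61.3 CPM, lay close to the neurons, and astrocyte-like nuclei held 779 ± 98.7 CPM. Pvalb/Pthlh interneuron-like nuclei, first for Gria1, were only at 1085 ± 50.0 CPM of Gria2, below every MSN class in every library. Cholinergic interneuron-like nuclei had the lowest neuronal level, 502 ± 26.1 CPM, from 82 nuclei in all.

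Gria4, encoding GluA4, had the steepest neuronal difference of the AMPA genes. Pvalb/Pthlh interneuron-like nuclei held 4039, 3250, 4486 and 3343 CPM in saline females, cocaine females, saline males and cocaine males. The next class was glial, oligodendrocyte precursor-like nuclei at 1628 ± 73.4 CPM, without overlap in either direction. Committed oligodendrocyte precursor-like nuclei had 226 ± 22.1 CPM and oligodendrocyte-like nuclei 98.1 ± 32.7, so the level was lower in each later class named for that lineage. In astrocyte-like nuclei Gria4 was at 10.4 ± 6.96 CPM, within the microglia-like range of 8.61 to 26.8.

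Grin1 separated neurons from glia. It ranged from 651 ± 34.6 CPM in D1-MSN-like nuclei down to 285 ± 96.2 in cholinergic interneuron-like nuclei, with every neighbour in that order overlapping the next. Oligodendrocyte precursor-like nuclei, at 73.6 ± 8.23 CPM, were below every neuronal library. The 10.1 ± 2.64 CPM of astrocyte-like nuclei overlapped the microglia-like 20.2 ± 6.65.

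The GluN2 genes each had their own leading class. Grin2a was highest in Sst interneuron-like nuclei, at 1477, 1723, 1527 and 1606 CPM in saline females, cocaine females, saline males and cocaine males, followed without overlap by eccentric MSN-like nuclei at 987 ± 50.5. D2-MSN-like nuclei had 423 ± 26.6 CPM and D1-MSN-like nuclei 362 ± 24.3. Grin2b was highest in glutamatergic neuron-like nuclei at 1272 ± 34.6 CPM, just above D1-MSN-like nuclei at 1214 ± 24.6 and D2-MSN-like nuclei at 1179 ± 46.5, whose ranges overlapped each other. Astrocyte-like nuclei also held 674 ± 84.4 CPM of Grin2b, and their range overlapped those of the Sst and Pvalb/Pthlh interneuron-like classes.

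Grin2c marked astrocyte-like nuclei, although it had been left out of the clustering. It was at 567, 627, 617 and 663 CPM in saline females, cocaine females, saline males and cocaine males there, 13.7-fold above the next class, Pvalb/Pthlh interneuron-like nuclei at 45.2 ± 13.1 CPM. In the D1 and D2 MSN classes the sums over all libraries were 25 and 19 UMIs. After every nucleus was thinned to 1000 UMIs, 43.8% of astrocyte-like nuclei had a Grin2c UMI (41.9% to 47.1% by library), against 0.16% of microglia-like nuclei (73.3% and 0.26% before thinning). In the same thinned nuclei Grin2b was seen in 43.2% of astrocyte-like and 1.88% of microglia-like nuclei, and Grin1 in 1.22% and 1.72%. Median depth was 3077 UMIs in astrocyte-like and 1349 in microglia-like nuclei, and thinning left out 10 and 134 nuclei. Transcripts of 2 GluN2 genes, and of Gria2, were well above the background in astrocyte-like nuclei, while transcripts of the obligatory GluN1 subunit were not detectable above it.

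Grin3a, encoding GluN3A, was highest in oligodendrocyte precursor-like nuclei, at 470, 446, 415 and 442 CPM in saline females, cocaine females, saline males and cocaine males. All 4 libraries lay above every other class. Cholinergic and Sst interneuron-like and eccentric MSN-like nuclei followed at 266 ± 109, 252 ± 19.7 and 243 ± 20.6 CPM, with overlapping ranges. D1-MSN-like nuclei were at 20.4 ± 4.42 and D2-MSN-like nuclei at 11.1 ± 2.17 CPM. A UMI of Grin3a was found in 32.7% of thinned oligodendrocyte precursor-like nuclei (64.8% before thinning, median depth 2809 UMIs), and the 772 microglia-like nuclei held 1 UMI of it in all.

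**Figure D1:**
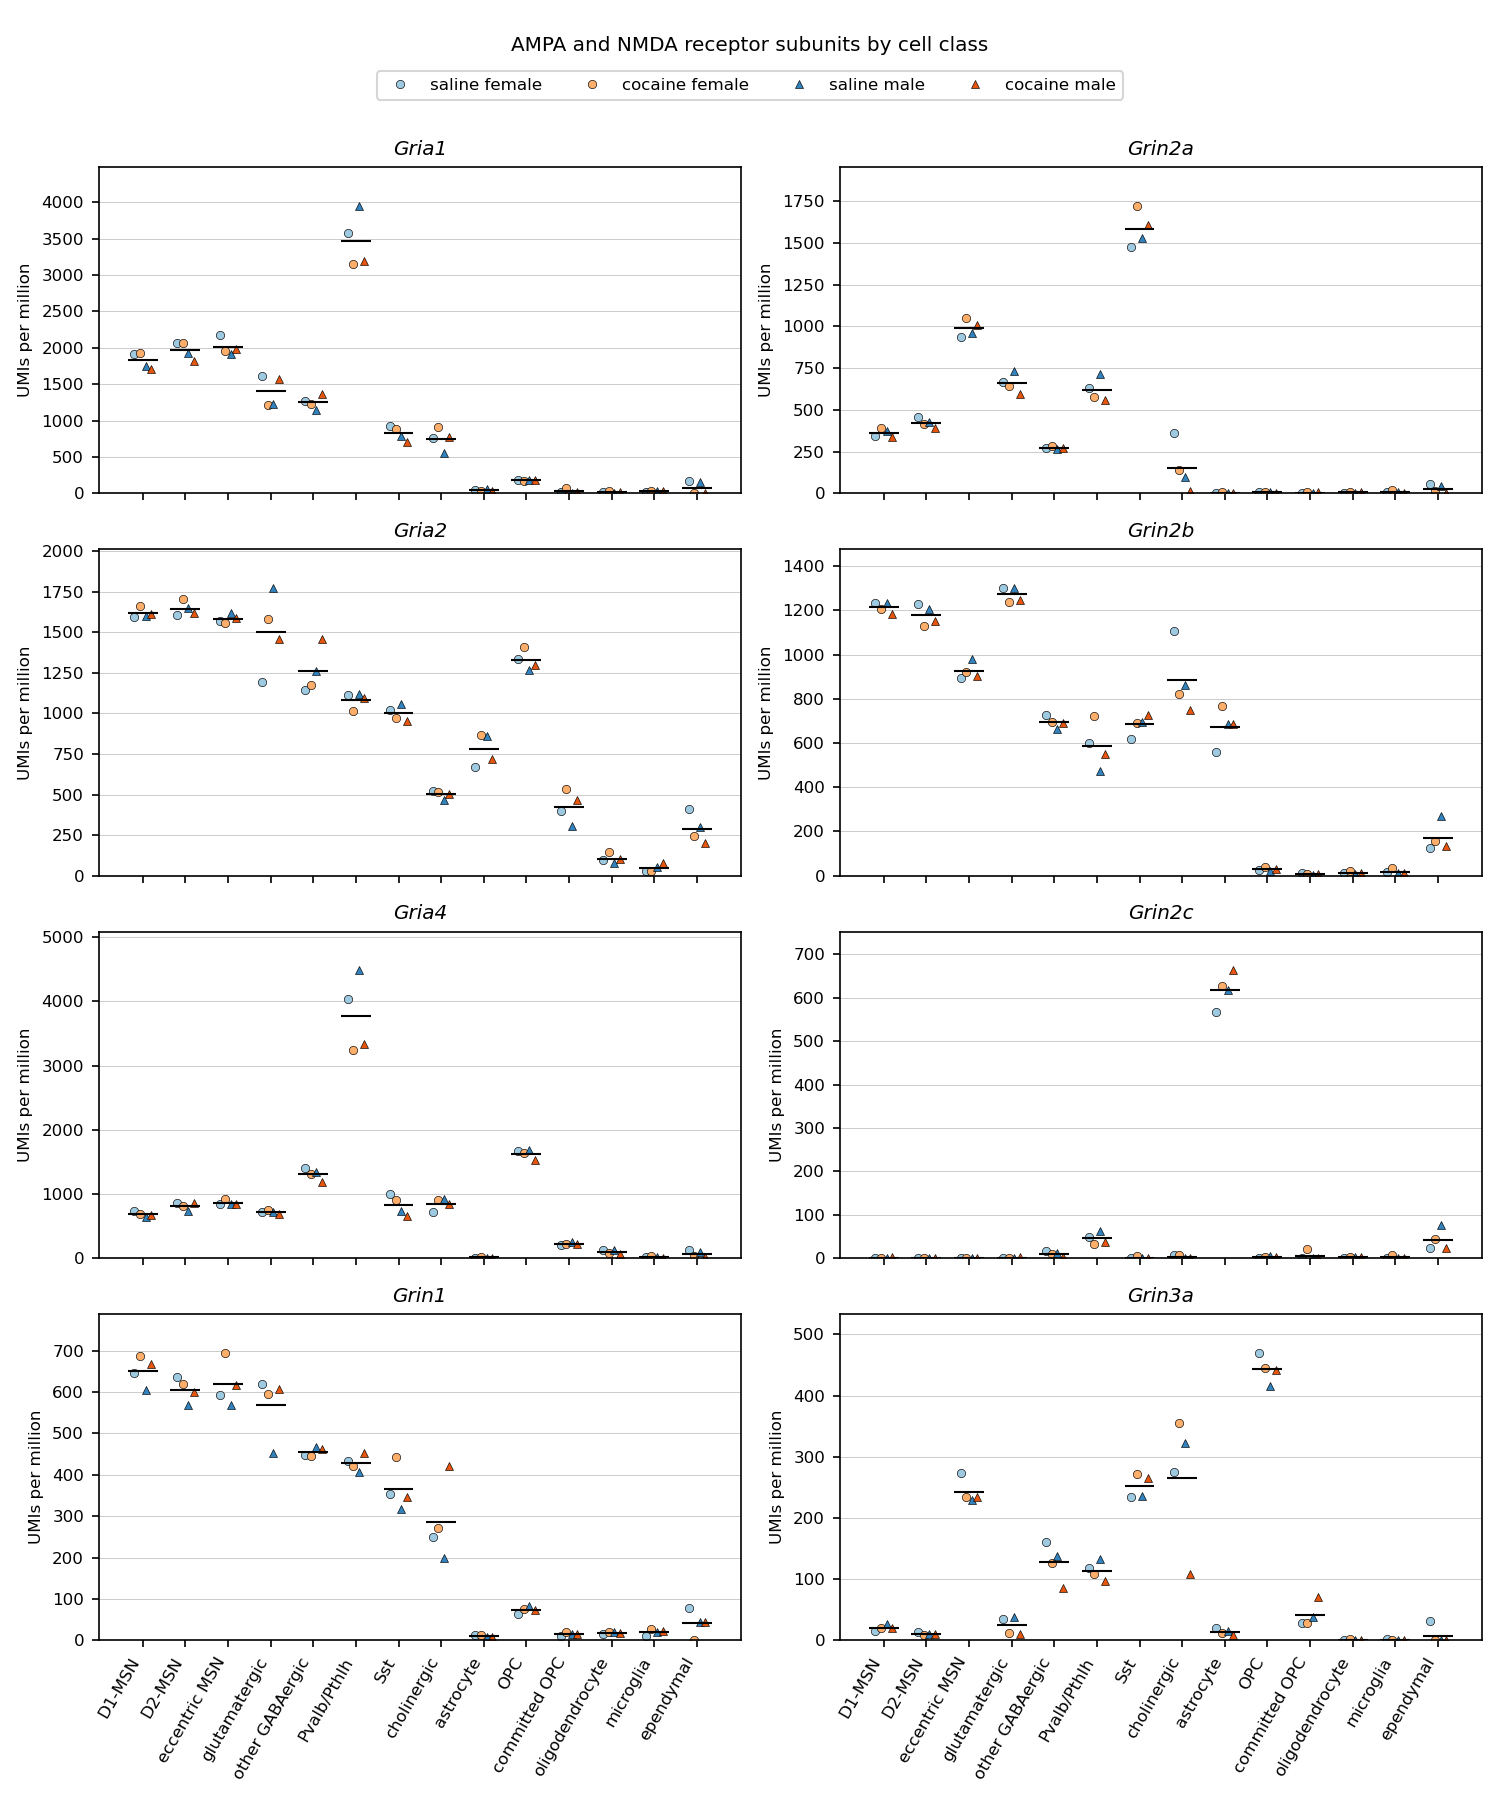
Level of each of the 8 subunit genes (CPM, linear axes from 0) in 14 cell classes; each point is a library and the line is the mean of 4. Gria1 and Gria4 peak in Pvalb/Pthlh interneuron-like nuclei, Grin2a in Sst interneuron-like, Grin2c in astrocyte-like and Grin3a in oligodendrocyte precursor-like (OPC) nuclei.

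Subunit ratios, formed from the UMIs of a class in a library, put these differences side by side. They carry the capture of both genes and are read only from class to class. The Gria1/Gria2 ratio was 3.19 ± 0.255 in Pvalb/Pthlh interneuron-like nuclei, 1.13 ± 0.0665 in the D1 class of MSNs and 1.20 ± 0.0694 in the D2 class, and 0.0561 ± 0.0201 in astrocyte-like nuclei. The Gria4/Gria2 ratio was 3.47 ± 0.428 in the Pvalb/Pthlh class, 1.70 ± 0.244 in the cholinergic class and 0.424 ± 0.0262 in D1-MSN-like nuclei. The Pvalb/Pthlh class had the highest ratio of both kinds in every library.

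The Grin2a/Grin2b ratio was 2.32 ± 0.143 in Sst interneuron-like nuclei, 1.09 ± 0.302 in Pvalb/Pthlh interneuron-like and 1.07 ± 0.0720 in eccentric MSN-like nuclei. D2-MSN-like nuclei had 0.359 ± 0.0146 and D1-MSN-like nuclei 0.298 ± 0.0196. Ratios were formed only where both terms had at least 10 UMIs in every library. The ratio of summed AMPA to summed NMDA UMIs, which leaves Gria3 out, was formed in 11 classes. Among these it was highest in oligodendrocyte precursor-like nuclei at 5.65 ± 0.206 and oligodendrocyte-like nuclei at 5.59 ± 1.21, and lowest in astrocyte-like nuclei at 0.632 ± 0.0614. In oligodendrocyte-like nuclei Grin1, at 18.6 ± 2.15 CPM, lay within the microglia-like range of 11.0 to 26.8. Committed oligodendrocyte precursor-like nuclei, with 428 AMPA and 47 NMDA UMIs in all, fell under the limit and are not ranked. The Gria3/Gria2 ratio was not analysed here.

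**Figure D2:**
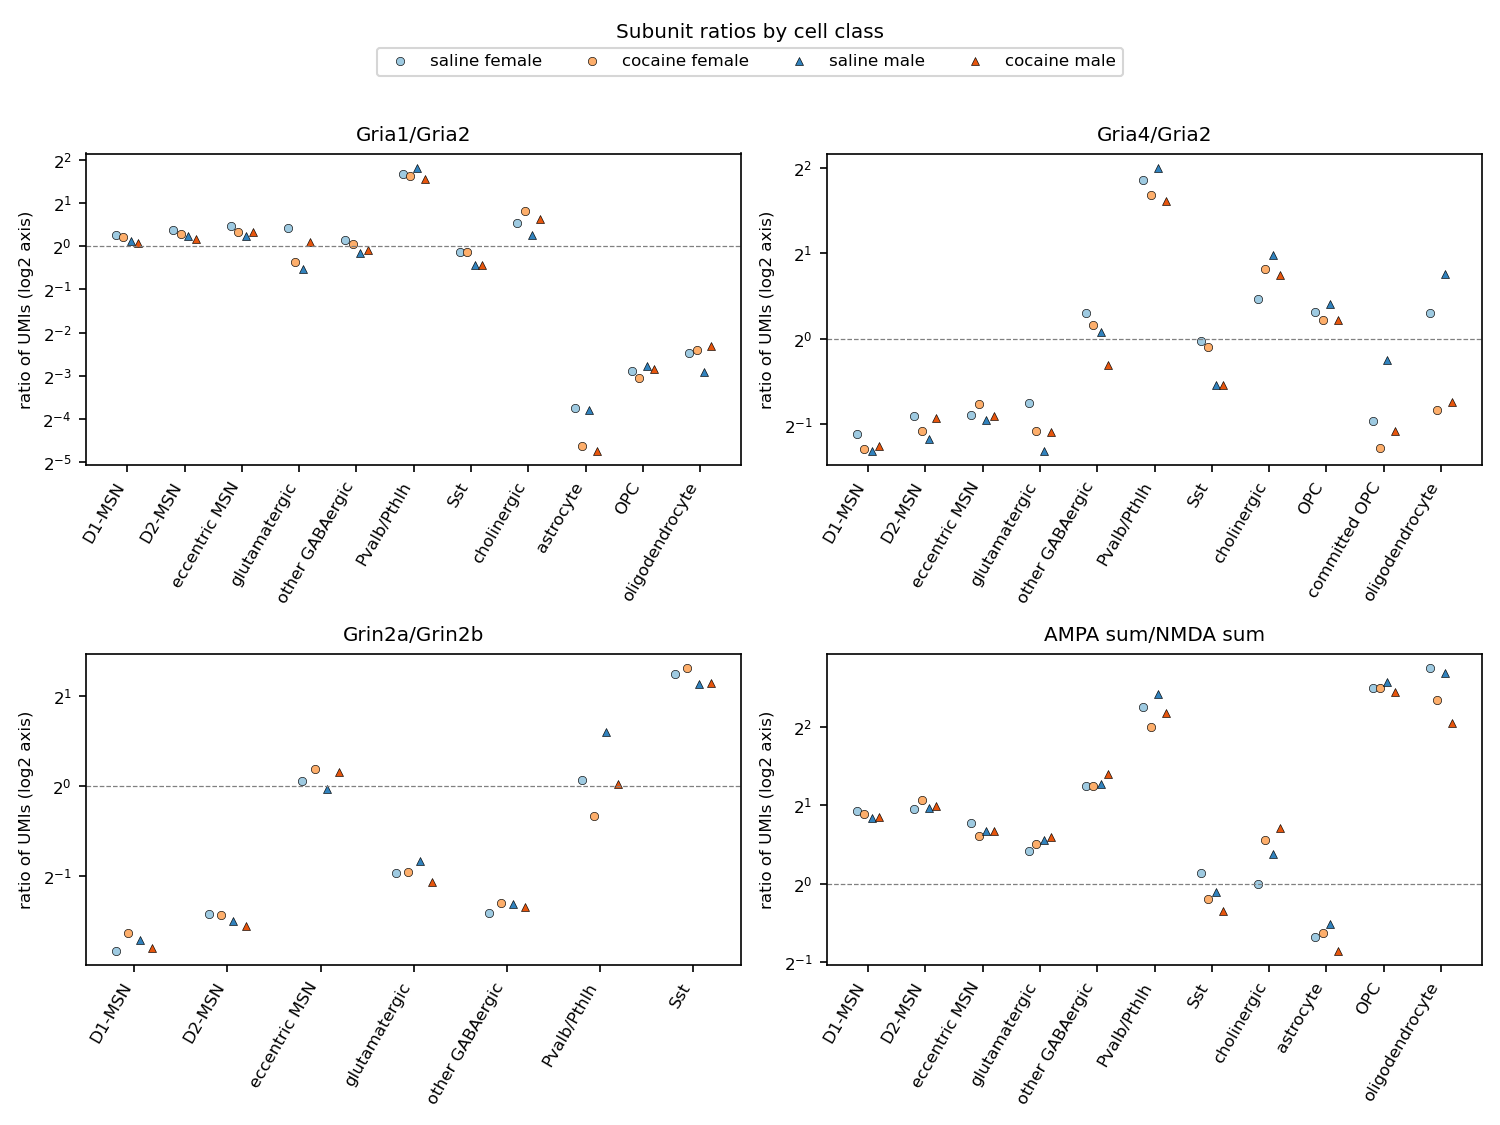
Subunit ratios of UMIs by cell class on log2 axes, 1 point per library, with the dashed line at a ratio of 1. Pvalb/Pthlh interneuron-like nuclei have the highest Gria1/Gria2 and Gria4/Gria2 ratios, and Sst interneuron-like nuclei the highest Grin2a/Grin2b ratio (2.32 ± 0.143).

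The members did not share one pattern over the 14 classes. On mean log2(CPM + 1), Pearson's r was 0.974 between Gria1 and Grin1 and 0.944 between Grin1 and Grin2a, and Grin2c had r between -0.456 and 0.060 with every other member. Over the 10383 genes with a symbol and at least 20 CPM in some class, the 2 genes most like each member were Syn2 and Slc35f4 for Gria1 (r of 0.987 and 0.977), Rims2 and Ttc19 for Gria2 (0.964 and 0.947) and Slc45a1 and Ppfia2 for Gria4 (0.973 and 0.965). For the NMDA genes they were Slc35f4 and Trank1 for Grin1 (0.993 and 0.992), Epha6 and Bcl11a for Grin2a (both 0.974), Palm and Plppr4 for Grin2b (0.963 and 0.960), Sdhc and Mrpl15 for Grin2c (0.924 and 0.923) and Siah3 and Lnx1 for Grin3a (0.936 and 0.912). These correlations describe 14 classes that come from the same 4 libraries.

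D1- and D2-MSN-like nuclei differed in 4 of the 7 members tested, in a fit with the library as a block (edgeR's quasi-likelihood test, Benjamini-Hochberg adjusted p under 0.05, which called 17.2% of the 12848 genes tested). Grin3a was higher in D1-MSN-like nuclei by 0.86 ± 0.13 on the log2 scale (SE, adjusted p = 1.89e-05), in 4 of 4 libraries. Gria4 was lower in them by a log2 difference of -0.26 ± 0.03 (adjusted p = 2.47e-07), Grin2a by -0.24 ± 0.04 (adjusted p = 6.35e-05) and Gria1 by -0.13 ± 0.02 (adjusted p = 4.00e-04), each lower in 4 of 4 libraries. Grin1 was higher by 0.09 ± 0.03 and just missed the threshold (adjusted p = 0.0518), and it passed in 4 of 11 alternative settings. Gria2 differed by -0.04 ± 0.02 (adjusted p = 0.334) and Grin2b by 0.03 ± 0.03 (adjusted p = 0.584). Grin2c had too few UMIs to test.

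Ratios followed the same order. In log2 units Gria1/Gria2 of D1-MSN-like minus D2-MSN-like nuclei was -0.10, -0.06, -0.10 and -0.09 in saline females, cocaine females, saline males and cocaine males. The difference in Grin2a/Grin2b was -0.41, -0.19, -0.21 and -0.25 in the same libraries. All 6 ratios compared had 1 direction in all 4 libraries, for which a two-sided exact sign-flip permutation test over 4 libraries gives its smallest possible p, one that stays above 0.05.

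Each MSN class was made of 2 clusters, and 3 of the members, Grin2a, Gria4 and Grin3a, had separate levels in the 2 clusters of both classes. The D1-MSN-like clusters are called 2 (Reln first among its leading genes) and 4 (Strip2, Drd1 and Fstl4 among them), and the D2-MSN-like clusters 1 (Calcr and Penk among them) and 12 (Zfp804a and Casz1 among them). Grin2a was at 258 and 183 CPM in cluster 2 in saline females and males and at 204 and 183 in cocaine, and in cluster 4 at 575 and 604 CPM in saline and 648 and 622 in cocaine. In the D2-MSN-like clusters it was at 367 ± 25.9 CPM in cluster 1 and 977 ± 50.2 in cluster 12. Gria4 went the other way, with 849 ± 27.5 CPM in cluster 2 against 419 ± 16.4 in cluster 4, and 864 ± 57.4 in cluster 1 against 296 ± 73.0 in cluster 12. Grin3a was at 10.9 ± 3.59 and 35.2 ± 5.59 CPM in clusters 2 and 4, and at 7.16 ± 1.64 and 50.3 ± 6.44 in clusters 1 and 12. For these 3 genes no library of 1 cluster overlapped a library of the other cluster of its class. The share of all genes without such overlap was not counted. The clusters were themselves formed from expression, so the count does not set the receptor genes apart. Grin2b, at 1215 ± 49.4 and 1209 ± 31.1 CPM in clusters 2 and 4, overlapped between them. Gria2 separated only the D1-MSN-like clusters (1705 ± 52.7 CPM in cluster 2 and 1481 ± 48.2 in cluster 4), and Gria1 only the D2-MSN-like ones (1930 ± 116 CPM in cluster 1 and 2379 ± 190 in cluster 12).

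**Figure D3:**
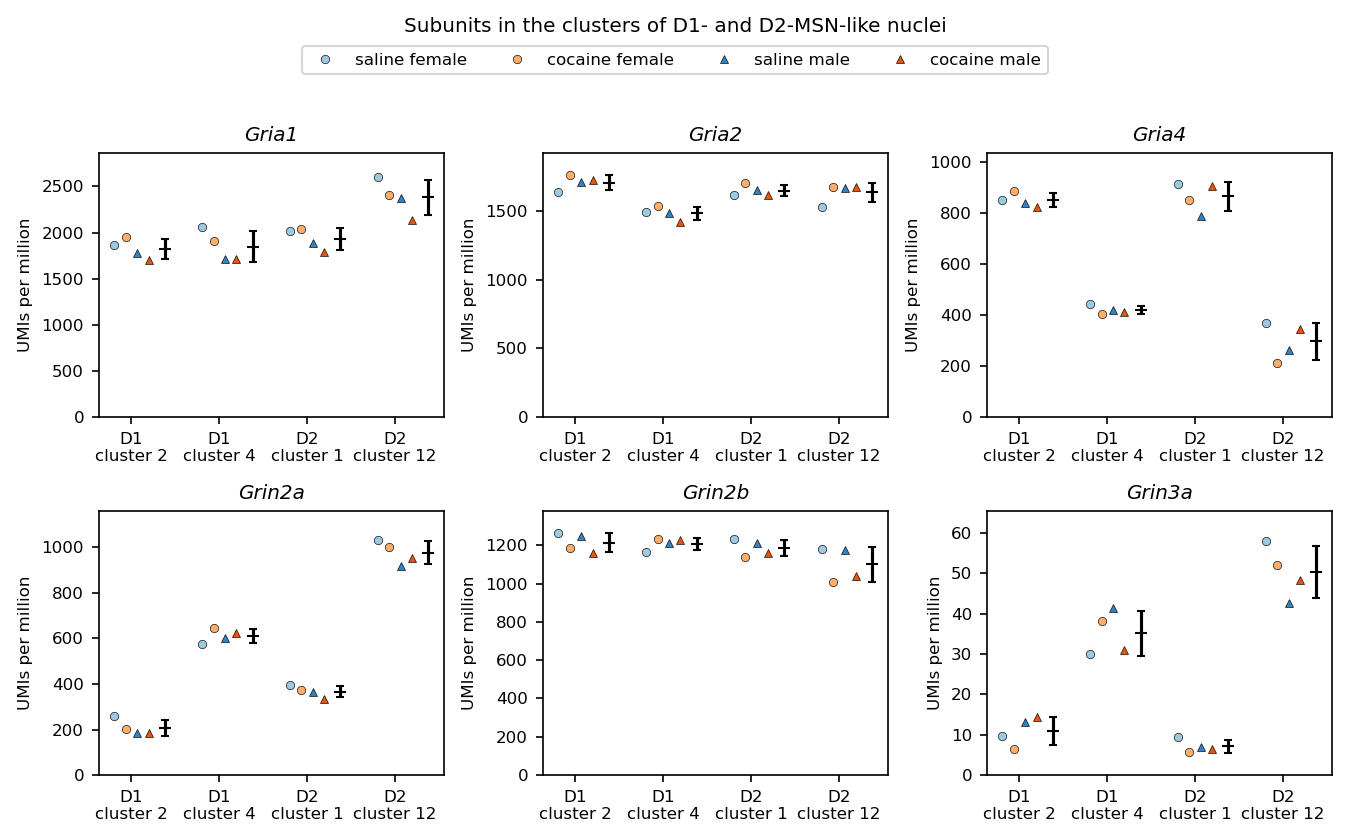
Level of 6 subunit genes (CPM, axes from 0) in the 2 clusters of D1-MSN-like and the 2 of D2-MSN-like nuclei; points are libraries, and bars are the mean ± SD of 4. Grin2a and Grin3a are higher and Gria4 lower in clusters 4 and 12 than in clusters 2 and 1.

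Cluster 4 made up 27.9%, 40.6%, 44.9% and 33.1% of D1-MSN-like nuclei in saline females, cocaine females, saline males and cocaine males, and cluster 12 made up 9.54%, 7.63%, 11.1% and 9.76% of D2-MSN-like nuclei. The comparison of the 2 classes was therefore repeated with cluster 2 against cluster 1 and with cluster 4 against cluster 12 (edgeR, 16.3% and 24.4% of genes called). These pairs were chosen after the cluster levels had been seen, so their p-values are not independent support. Grin2a was lower on the D1 side in both, by log2 differences of -0.85 ± 0.05 (adjusted p = 7.25e-12) and -0.65 ± 0.07 (adjusted p = 9.50e-09). Gria1 was also lower in both, by -0.10 ± 0.03 (adjusted p = 0.0151) and -0.35 ± 0.06 (adjusted p = 4.86e-05). Gria4 did not pass for cluster 2 against 1 (-0.04 ± 0.04, adjusted p = 0.561) and was higher on the D1 side for cluster 4 against 12 (0.53 ± 0.09, adjusted p = 4.74e-05), the reverse of the difference between whole classes. Grin3a was higher in cluster 2 than in cluster 1 (0.58 ± 0.17, adjusted p = 0.0196) and lower in cluster 4 than in cluster 12 (-0.48 ± 0.16, adjusted p = 0.0245). Grin1 was higher in cluster 2 than in cluster 1 (0.13 ± 0.04, adjusted p = 0.0153) and did not pass for cluster 4 against 12 (0.01 ± 0.07, adjusted p = 0.941). The directions depend on the pairing. By mean level Grin2a was higher on the D1 side for cluster 4 against 1 (612 ± 30.5 and 367 ± 25.9 CPM). It was lower for cluster 2 against 12 (207 ± 35.5 and 977 ± 50.2 CPM), and these cross pairs were not tested.

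An unnamed cluster of 315 nuclei, led by Adamtsl1, Lgr6 and Drd3, had the highest Gria2 level of all 23 clusters, at 3557 ± 471 CPM, with 1206 ± 121 CPM of Gria1. Its Gria1/Gria2 ratio was 0.341 ± 0.0219, against 1.07 ± 0.0688 to 1.46 ± 0.176 in the 4 MSN clusters.

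After 7 days of cocaine, no member passed the test in D1- or D2-MSN-like nuclei (edgeR, sex as covariate, 1 residual degree of freedom, 7 members tested in each, 0.0301% and 0.00786% of genes called in the D1 and the D2 class). At an unadjusted p under 0.05 the counts were 0 and 2 members, where 8.13% and 8.6% of all genes passed that limit, and DESeq2 called 0 in both. In D1-MSN-like nuclei the largest difference was that of Grin1, at 645 and 606 CPM in saline females and males and 686 and 668 in cocaine females and males, a log2 difference of 0.09 ± 0.07 (adjusted p = 0.739). In D2-MSN-like nuclei the largest difference was that of the sparse Grin3a, at 14.1 and 10.9 CPM in saline females and males and 9.0 and 10.3 in cocaine (log2 difference -0.41 ± 0.19, adjusted p = 0.588). Grin2a was at 457 and 425 CPM in saline females and males and 417 and 392 in cocaine (log2 difference -0.17 ± 0.06, adjusted p = 0.518), and Grin2b at 1228 and 1208 CPM in saline and 1130 and 1150 in cocaine (-0.14 ± 0.06, adjusted p = 0.568). The cocaine libraries were below the saline libraries for these 3 genes, without overlap, and none of the differences passed. Without TMM scaling the log2 differences in females and males were -0.65 and -0.08 for Grin3a, -0.13 and -0.12 for Grin2a, and -0.12 and -0.07 for Grin2b. A split of 2 against 2 libraries without overlap has an exact permutation p of 0.333 at best, and the share of all genes split this way was not counted. The difference in cocaine effect between D1- and D2-MSN-like nuclei was not past the threshold for any of the 7 members (0.117% of genes called), with the lowest adjusted p at 0.619 for Grin2a.

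Testing the clusters apart gave no member in any MSN cluster, where 1.8%, 0.51%, 0.566% and 0.328% of genes were called in clusters 2, 4, 1 and 12. The Gria1/Gria2 ratio of D1-MSN-like nuclei was 1.20 and 1.09 in saline females and males and 1.16 and 1.06 in cocaine, a log2 difference of -0.05, and that of D2-MSN-like nuclei was 1.29 and 1.17 in saline and 1.21 and 1.12 in cocaine, a log2 difference of -0.07. The groups overlapped in both classes. Within each sex the ratio was lower in cocaine, by log2 differences of -0.05 in females and -0.05 in males in the D1 class and -0.09 and -0.06 in the D2 class, and the permutation test does not use this pairing. For Grin2a/Grin2b the difference was 0.06 in the D1 class and -0.03 in the D2 class, again with overlap (all 4 exact permutation p = 0.667, where 2 against 2 cannot go below 0.333). None of the 60 pairs of a ratio and a class could pass after adjustment (lowest adjusted exact permutation p = 0.769).

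In the other 10 classes 4 differences passed, all lower in cocaine. These were Gria4 and Gria1 in Pvalb/Pthlh interneuron-like nuclei (2 of 8 members, 2.48% of genes called), Gria4 in oligodendrocyte-like nuclei (1 of 6, 0.495%) and Gria1 in astrocyte-like nuclei (1 of 7, 1.4%). No member passed in eccentric MSN-like (0.85% of genes called), Sst interneuron-like (0.179%), committed oligodendrocyte precursor-like (0.293%), microglia-like (0.145%), oligodendrocyte precursor-like (0.0236%), glutamatergic neuron-like (0%) or other GABAergic neuron-like nuclei (0%). The weight of the spread shared across genes, as prior degrees of freedom beside the 1 residual, was infinite in the Pvalb/Pthlh interneuron-like and astrocyte-like fits. It was 28.7 in the oligodendrocyte-like fit. At an infinite weight a gene's own difference between the female and male pairs does not enter, and the p-value rests on the shared spread. DESeq2 called none of the 4, and none passed in a fit without sex. Fits that leave out a library below also lack sex, and their lone library is assumed to vary like the others, so a call lost there cannot be put down to the library left out.

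**Figure D4:**
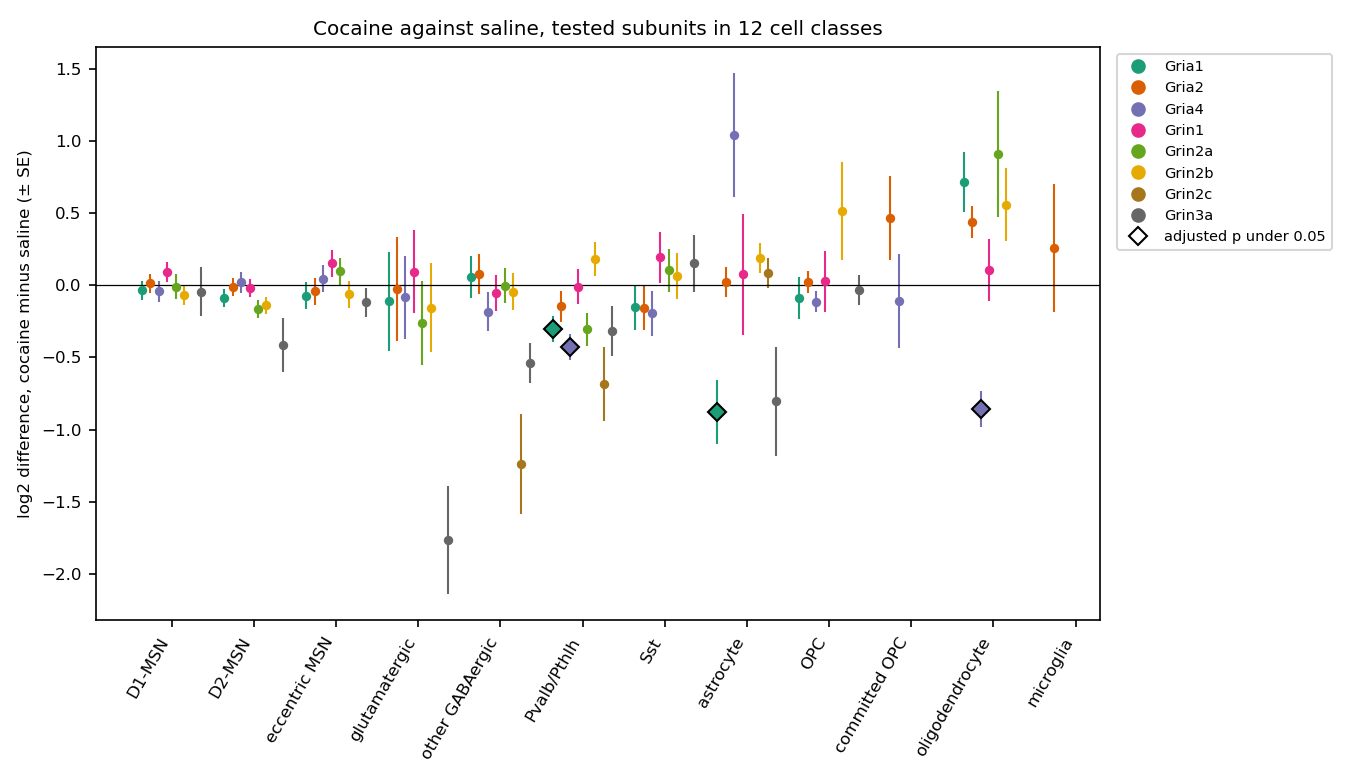
Log2 difference of cocaine minus saline with its SE from edgeR for every tested subunit gene in the 12 tested cell classes; diamonds are adjusted p under 0.05. No value in D1- or D2-MSN-like nuclei is a diamond, and the 4 diamonds are all below 0.

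In Pvalb/Pthlh interneuron-like nuclei Gria4 fell from 4039 and 4486 CPM in saline females and males to 3250 and 3343 in cocaine, a log2 difference of -0.43 ± 0.09 (adjusted p = 2.10e-04). Gria1 fell from 3574 and 3955 CPM to 3146 and 3196 (-0.30 ± 0.09, adjusted p = 0.0354). Without TMM scaling the log2 differences in females and males were -0.31 and -0.42 for Gria4, and -0.18 and -0.31 for Gria1. Both cocaine libraries lay below both saline libraries for each gene. Markers of other cells moved in the same libraries. The 5 Sst interneuron markers summed to 34.6 and 38.2 CPM in saline females and males and to 185 and 164 CPM in cocaine, with 5 of 5 higher and none at 0, the 5 Vip/Adarb2 markers to 379 and 328 against 1002 and 1294 CPM, with 4 of 5 higher and none at 0, and the class's own 5 markers to 9293 and 10010 against 7823 and 7642 CPM, with 3 of 5 lower. Their part in the result was not tested. When single nuclei were gated on markers in place of clusters, the differences were -0.19 for Gria4 and -0.00 for Gria1, and neither passed. Of the nuclei gated as Pvalb/Pthlh interneuron-like, 378 came from the class of that name and 356 from the other GABAergic neuron-like class. The latter class held 1312 ± 94.8 CPM of Gria4 and 1250 ± 95.2 of Gria1, so the gate tested another mix of nuclei. Gria4 did not pass when cocaine females (-0.43) or saline males (-0.35) were left out, and Gria1 did not pass with any of the 4 libraries left out (-0.37 to -0.23). The other members of the class had Grin2a at -0.31 ± 0.11 (adjusted p = 0.171), Grin2c at -0.69 ± 0.26 (adjusted p = 0.164) and Grin2b at 0.18 ± 0.12 (adjusted p = 0.618).

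In oligodendrocyte-like nuclei Gria4 fell from 121 and 129 CPM in saline females and males to 81.6 and 60.3 CPM in cocaine, counted from 520, 308, 288 and 146 UMIs in that order (log2 difference -0.86 ± 0.12, adjusted p = 1.79e-04). The 3 clusters of the class were also tested apart, a choice made after seeing the data, with 0.213%, 0.393% and 0.327% of genes called in clusters 0, 7 and 11. Gria4 was lower in cluster 0 (-1.02 ± 0.16, adjusted p = 0.00217) and in cluster 7 (-0.73 ± 0.16, adjusted p = 0.00361), and its difference in cluster 11, with 438 nuclei, did not pass (-0.52 ± 0.35, adjusted p = 0.909). The 5 committed oligodendrocyte precursor markers summed to 1795 and 1774 CPM in saline and 1661 and 1754 in cocaine, with 4 of 5 lower, and the 5 oligodendrocyte precursor markers to 88.6 and 97.0 against 94.9 and 102 CPM, none of either list at 0. The 6 MSN markers summed to 248 and 255 CPM in saline and 268 and 299.6 in cocaine, with 5 of 6 higher and none at 0. Beside these, Gria2 was at 0.44 ± 0.11 (adjusted p = 0.0638) and Gria1 at 0.71 ± 0.21 (adjusted p = 0.143). With the predicted doublets kept, the Gria4 difference was -0.43 and did not pass, and it did not pass without the cocaine female (-1.12), saline male (-0.83) or cocaine male library (-0.66).

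In astrocyte-like nuclei Gria1 was a rare transcript, with 76 and 83 UMIs in saline females and males and 52 and 33 in cocaine. It fell from 50.2 and 62.0 to 34.9 and 26.8 CPM (log2 difference -0.88 ± 0.22, adjusted p = 0.00995), and the lowest of these levels lies within the microglia-like range of 21.9 to 34.4 CPM. A finer clustering split the class in 2, and its cluster 12 made up 44.5% and 25.9% of the class in saline females and males and 27.6% and 15.6% in cocaine. Gria1 was at 107 and 161 CPM in cluster 12 in saline and 60.3 and 86.5 CPM in cocaine (-0.87 ± 0.29, adjusted p = 0.378, 0.138% of genes called), and in cluster 6 it was at 7.02 and 25.6 CPM in saline and 26.1 and 15.3 in cocaine (0.32 ± 0.39, adjusted p = 0.972, 0.157% of genes called). With predicted doublets kept the difference in the whole class was -0.01, and it did not pass with any of the 4 libraries left out (-1.10 to -0.71). The 6 MSN markers summed to 342 and 285 CPM in saline and 792 and 619 in cocaine, with 4 of 6 higher and none at 0, and their part was not tested. Grin2c, Grin2b and Gria2, the abundant members of the class, had differences of 0.09 ± 0.10, 0.19 ± 0.10 and 0.02 ± 0.10, none past the threshold.

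**Figure D5:**
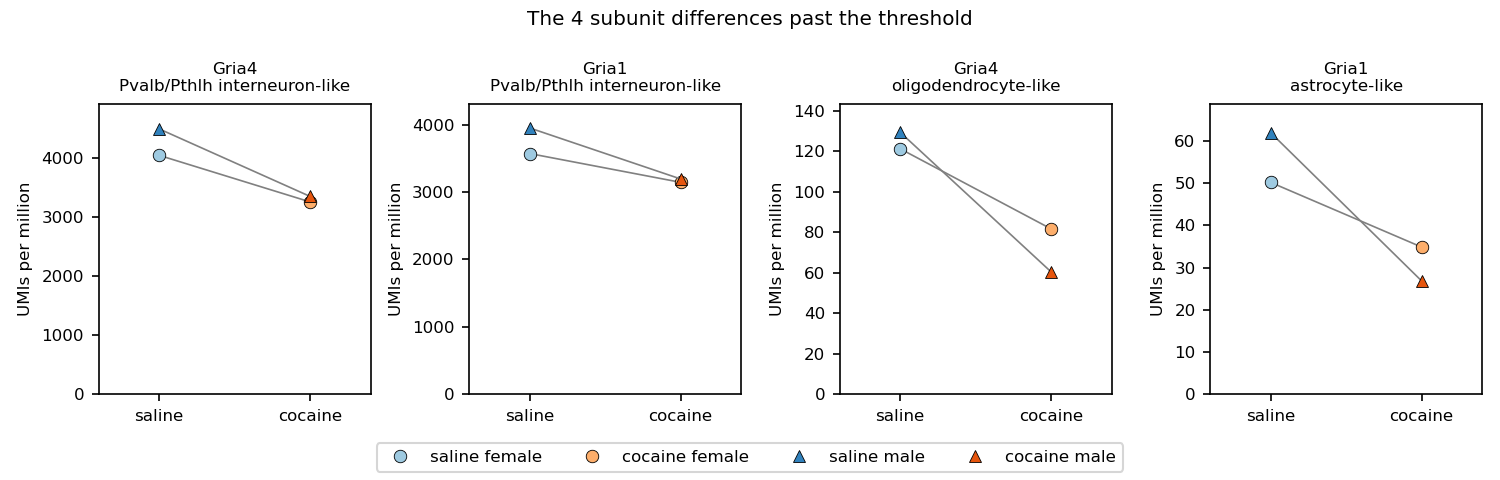
The 4 differences past the threshold, as CPM in saline and cocaine libraries, with lines joining the libraries of the same sex and axes from 0. Both cocaine libraries lie below both saline libraries in each panel.

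Grin3a in glutamatergic neuron-like nuclei had the largest fitted difference of any tested member, with 35.6 and 39.0 CPM in saline females and males and 12.5 and 10.3 in cocaine, from 15, 21, 34 and 11 UMIs in that order. The log2 difference of -1.76 ± 0.38 did not pass (adjusted p = 1.000), while with single nuclei gated on markers it was -1.98 and passed (adjusted p = 0.00711), and the 2 clusters of this class had different shares in each library. The gate took 425 nuclei from the glutamatergic neuron-like class and 138 from the other GABAergic neuron-like class. Mean Grin3a was 24.4 ± 15.0 CPM in the former class and 128 ± 31.5 in the latter, and the part of this mix was not tested. In other GABAergic neuron-like nuclei Grin3a was at 161 and 138 CPM in saline and 127 and 85.5 in cocaine (-0.54 ± 0.14), and Grin2c at 16.0 and 11.7 against 8.26 and 3.24 CPM (-1.24 ± 0.35, both adjusted p = 0.972).

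The proteins that assemble, anchor and modify these receptors were followed as 63 genes in 6 lists, of which 62 were listed by symbol. Under cocaine 0 of 60 tested genes passed in the D1 class and 0 of 59 in the D2 class (edgeR), with 3 and 4 at an unadjusted p under 0.05, a limit that 8.13% and 8.6% of all genes passed. Their median log2 differences were -0.02 and -0.07. Without the saline male library 3 passed in D1-MSN-like nuclei, all higher (Olfm3, Shisa6 and the kinase gene Camk2d), in a fit without sex that called 1.56% of all genes against 0.0301%. In the other 10 classes 7 gene-by-class differences passed, 2 higher and 5 lower. They were 3 of 57 tested in Pvalb/Pthlh interneuron-like nuclei (2.48% of all genes called), 2 of 46 in astrocyte-like (1.4%), 1 of 59 in eccentric MSN-like (0.85%) and 1 of 45 in oligodendrocyte-like nuclei (0.495%). Shisa9, an AMPA receptor auxiliary protein, was 3 of them, at -0.39 ± 0.10 in eccentric MSN-like (adjusted p = 0.0123), -0.35 ± 0.10 in astrocyte-like (adjusted p = 0.0427) and 0.72 ± 0.15 in Pvalb/Pthlh interneuron-like nuclei (adjusted p = 1.75e-04).

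The same lists were compared between D1- and D2-MSN-like nuclei, where 17.2% of all genes were called. These are differences between whole classes. The part of the cluster shares given above was not tested for these genes. Of 15 receptor kinases and phosphatases 6 were higher and 1 lower in D1-MSN-like nuclei. Camk2d, a CaMKII isoform, was at 95.2 against 14.0 CPM (log2 difference 2.75, adjusted p = 9.06e-20), and Prkca, a protein kinase C gene, was 0.94 higher. Of 18 AMPA receptor auxiliary and assembly genes 2 were higher and 5 lower. Cacng5, a TARP that binds AMPA receptors, was at 7.79 against 25.3 CPM (-1.71, adjusted p = 1.17e-12) and Shisa6 at 22.8 against 10.2 CPM (1.13, adjusted p = 1.54e-05, higher in 3 of 4 libraries). Of 19 scaffold and trafficking genes 2 were higher and 5 lower. Among these Grip1, whose product binds GluA2, was at 1017 against 1474 CPM (-0.56), and Shank1 at 32.3 against 18.0 CPM (0.83). Neto1 was lower at -0.37 and Nlgn1 higher at 0.41 of 5 NMDA receptor auxiliary and clustering genes. Adarb1, which encodes an RNA-editing enzyme that acts on the Gria2 transcript, was lower at -0.23 ± 0.03 (203 against 234 CPM), while Adar did not pass.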

How the data were processed

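The deposited values are raw UMI counts per gene and nucleus. They were made with Cell Ranger 6.1.2, per the file headers, on rn7, per the submitters' processing notes, and further settings were not given in the sources used here. Nuclei under 200 detected genes or over 5% mitochondrial UMIs were dropped, and those with the highest Scrublet scores were removed as doublets (0.8% per 1000 barcodes). Counts were clustered with scanpy 1.11.5 and leidenalg 0.10.2 (2000 variable genes without any member, 30 components, 15 neighbours, resolution 0.5). Clusters were named from 17 marker lists with limits set after the data had been seen. UMIs were summed by class and library and fitted across all genes with edgeR 4.0.16 (TMM scaling, filterByExpr, quasi-likelihood test, Benjamini-Hochberg adjustment), with sex as covariate for cocaine and the library as block for D1 against D2. DESeq2 1.42.0 was an alternative. Alternatives also changed the scaling, filter, doublet removal, cell classes and libraries used. The edgeR code was tested on simulated data. All members are named, as are pathway genes past the threshold in MSN classes. The members, lists and tests were chosen with earlier results of these data known. Microglia-like nuclei gave the background level. Intervals within a sex are 95% and cover counting error only.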

Additional observations from a re-analysis of the deposited data

Results flagged for a closer look

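In 8 cases a member moved in opposite directions under cocaine in females and in males, each beyond its 95% counting interval. The share of all genes that meet this rule was not counted, so the count does not set the members apart. That interval is narrow where UMIs are many, and it leaves out the spread between pools of rats. Every sex is 1 library per treatment, so the difference between the sexes was not tested. The values are the male minus the female log2 difference. In D1-MSN-like nuclei they were 0.17 for Gria4, -0.32 for Grin2a and -0.73 for Grin3a, and the share of cluster 4, which is high in Grin2a and Grin3a and low in Gria4, was 27.9% in saline and 40.6% in cocaine females and 44.9% in saline and 33.1% in cocaine males. The part of these shares in the 3 values was not tested. In D2-MSN-like nuclei the value was 0.31 for Gria4. In astrocyte-like nuclei it was -0.62 for Gria2. In glutamatergic neuron-like nuclei it was 0.75 for Gria1 and -0.69 for Gria2, where the share of the larger cluster moved from 25.8% to 75.5% in females and from 86.8% to 50.8% in males. In other GABAergic neuron-like nuclei it was 0.32 for Gria1.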

How the results depend on the processing

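The 4 member differences under cocaine became 0 with DESeq2, 0 without sex as covariate (the replicate block) and 2 without doublet removal. Fits that left out 1 library also dropped sex, which alone gave 0, so a call lost in them cannot be put down to the library. The D1-MSN-like, D2-MSN-like and oligodendrocyte-like clusters were also tested apart, without the other classes. They gave 2 calls, Gria4 in clusters 0 and 7, where those 3 classes as wholes gave 1. RLE scaling gave 3 and resolution 1.0 gave 4. No filter gave 5, adding Gria2 in oligodendrocyte-like nuclei, higher in cocaine (0.42). Gating gave 4, without both Pvalb/Pthlh calls and with Gria2 in oligodendrocyte-like (0.45) and Grin3a in glutamatergic neuron-like nuclei (-1.98). Gated classes drew partly on nuclei of other clusters, as given above. Calls between D1- and D2-MSN-like nuclei stayed at 3 to 5 in all 13 alternatives. Gria4 and Grin3a reversed for cluster 4 against cluster 12 (0.53 and -0.48). The log2 Gria1/Gria2 difference of D1 minus D2 went from -0.09 to -0.14 with gated nuclei and -0.11 with the mean over nuclei, and the Grin2a/Grin2b difference under cocaine in D1-MSN-like nuclei from 0.06 to -0.073 in cluster 2 alone. Pathway genes called in MSN-like nuclei went from 0 to 1 without a filter, and leaving out libraries gave 0 to 3. The cause was not tested. With 2 libraries per treatment and 1 residual degree of freedom, small differences could be missed, and the fewest UMIs lie behind Grin2c and Grin3a in MSN-like nuclei.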
